A study of Mus musculus with 2 samples.

Results

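The genes of sterol synthesis and cholesterol transport were followed in mouse superficial zone cells given retinoic acid, the active metabolite of vitamin A. The set holds 32 genes chosen by name for their place in the pathway, 30 of which had at least 1 probe set carrying only that symbol, among 18193 named genes on the array. Acat2 and Soat1 were not analysed here. Superficial zone cells are the flattened chondrocytes at the surface of articular cartilage. Joint surfaces of femur and tibia from ICR mice, aged postnatal day 4, were their source, and they were grown in DMEM with 10% fetal bovine serum, either with 10 μM retinoic acid for 24 h (n = 1) or without it (control, n = 1). RNA from each culture was read on 1 Affymetrix Mouse Genome 430 2.0 array. With 1 array per group there is no replicate and no test, each fold describes these 2 arrays, and their number limits the precision. The labels do not say how many animals a culture held or whether both cultures came from 1 preparation.

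Cells build cholesterol from acetyl-CoA through mevalonate and squalene. The enzymes of this route are switched on together by the transcription factor SREBP2, which Scap carries to the Golgi for cleavage when membrane sterols are low and which the Insig proteins hold back in the endoplasmic reticulum when sterols are plentiful. Cholesterol leaves the cell through ABC transporters whose genes are targets of the liver X receptors, nuclear receptors that bind oxysterols and pair with retinoid X receptors. Serum in the medium supplies lipoprotein cholesterol, and chondrocytes can also make their own.

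Promoters of 5 of these genes are shown because they frame the pattern described below. Insig1, Idi1 and Hmgcs1 were higher with retinoic acid and belong to the SREBP2 programme. Abca1 is an efflux gene that was higher, and Mvk is the only synthesis gene that was at least 1.5-fold lower. Each run is 300 bases from RefSeq on build GRCm38.p6, from 250 bases before the annotated start to 50 after it, 5′ to 3′ on the gene's strand. Capitals mark the matches, on either strand, to the sterol element TCACNCCAC, to CCAAT, to the E-box CACGTG and to the direct repeat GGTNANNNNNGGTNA, a liver X receptor type of repeat.
Insig1 (chr5:28071162-28071461, plus strand): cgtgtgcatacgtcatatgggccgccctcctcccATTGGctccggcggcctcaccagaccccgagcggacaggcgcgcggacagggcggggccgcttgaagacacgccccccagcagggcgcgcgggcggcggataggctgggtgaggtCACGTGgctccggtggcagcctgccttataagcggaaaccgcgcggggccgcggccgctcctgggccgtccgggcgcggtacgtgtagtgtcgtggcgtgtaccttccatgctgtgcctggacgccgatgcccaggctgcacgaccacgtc
Idi1 (chr13:8885356-8885655, plus strand): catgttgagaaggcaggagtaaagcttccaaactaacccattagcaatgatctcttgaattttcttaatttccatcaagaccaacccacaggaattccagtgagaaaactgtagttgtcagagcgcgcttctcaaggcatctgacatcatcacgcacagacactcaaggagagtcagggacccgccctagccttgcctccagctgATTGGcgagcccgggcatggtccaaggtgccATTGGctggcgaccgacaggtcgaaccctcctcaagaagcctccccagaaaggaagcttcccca
Hmgcs1 (chr13:119690101-119690400, plus strand): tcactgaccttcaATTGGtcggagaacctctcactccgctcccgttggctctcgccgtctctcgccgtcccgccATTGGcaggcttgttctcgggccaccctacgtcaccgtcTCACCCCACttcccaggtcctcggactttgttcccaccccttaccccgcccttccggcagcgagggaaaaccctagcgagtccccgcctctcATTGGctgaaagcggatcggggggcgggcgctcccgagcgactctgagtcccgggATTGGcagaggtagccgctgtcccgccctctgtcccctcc
Abca1 (chr4:53159846-53160145, minus strand): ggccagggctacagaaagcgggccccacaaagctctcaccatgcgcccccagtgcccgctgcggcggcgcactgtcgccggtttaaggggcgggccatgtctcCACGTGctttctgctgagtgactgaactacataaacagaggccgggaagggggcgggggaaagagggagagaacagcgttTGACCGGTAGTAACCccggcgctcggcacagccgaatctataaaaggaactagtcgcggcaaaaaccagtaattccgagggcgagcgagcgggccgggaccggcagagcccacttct
Mvk (chr5:114444019-114444318, plus strand): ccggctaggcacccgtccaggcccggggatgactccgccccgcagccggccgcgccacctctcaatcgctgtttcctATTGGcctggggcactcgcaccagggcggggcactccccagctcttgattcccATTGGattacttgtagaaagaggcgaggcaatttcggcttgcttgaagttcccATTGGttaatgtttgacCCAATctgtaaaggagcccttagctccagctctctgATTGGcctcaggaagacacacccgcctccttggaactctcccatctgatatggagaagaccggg

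In these windows the sterol element stood in Hmgcs1 alone among the 31 promoters of 25 of these genes in the RefSeq table, with its first base 137 bases before the start. It was present in 1.24% of all 32851 promoters of that length. The direct repeat stood in Abca1 alone, 67 bases before the start, against 0.718% of all promoters. CCAAT, the box bound by NF-Y, was far more common: 21 of the 31 promoters held it (67.7%), against 37.4% of all promoters and 38.2% of the 21262 of protein-coding genes. Among the genes shown it occurred 5 times in Mvk, 4 times in Hmgcs1, 2 times in Idi1 and 1 time in Insig1. Of the 5 genes shown, Mvk, which was lower, held the most copies. Among the measured genes of this sterol set with a promoter, CCAAT was in 9 of 10 promoters of those at least 1.5-fold higher. It was in 11 of 19 promoters of the others, where a gene with several promoters counts for each. A link between CCAAT, or another motif, and the direction of a gene was not tested. The GC box GGGCGG, which is not capitalised above, was in 25 of the 31 promoters (80.7%), against 35.7% of all promoters and 46.2% of those of protein-coding genes. By the same split the GC box was in 10 of 10 promoters of the higher genes and in 13 of 19 of the others. The E-box was in 7 of the 31 (22.6%), against 7.15% of all promoters and 7.84% of those of protein-coding genes. It was in 3 of 10 promoters of the higher genes and in 4 of 19 of the others. A retinoic acid receptor type of repeat, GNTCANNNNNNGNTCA, was in 0 of the 31, and its closer-spaced form GNTCANNNGNTCA was in 1, that of Srebf2, against 0.862% and 1.12% of all promoters. A match is a run of letters and does not show binding, and base composition was not matched between the promoters compared. Only the spellings given were searched, in these windows alone, so a missing match does not show that a gene lacks such a site. Fdps, Fdft1, Sqle, Stard4, Npc1, Abcg1 and Cyp7b1 were not matched to the table.

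Both arrays carried the marks of their labels. Cyp26b1, which encodes an enzyme that breaks down retinoic acid, had a MAS5 signal of 4624 with retinoic acid and 40.3 in control. All 12 chondrocyte markers read were above the floor, the median signal of an array (29.7 with retinoic acid, 26.5 in control). Of 6 superficial zone markers, all above the floor, 4 were lower with retinoic acid, among them Prg4, which encodes lubricin (1148 with retinoic acid, 1920 in control), while Vcam1 was 2.30-fold and Cilp2 1.01-fold higher; their signals summed to 4263 with retinoic acid and 5606 in control. All 12 chondrocyte markers were lower with retinoic acid, 8 of them at least 2-fold (66.7%), around a median log2 ratio of -2.07. Of all 11884 genes above the floor on at least 1 array, 48.4% were lower by any amount and 4.34% at least 2-fold. The signals of the 12 chondrocyte markers summed to 31298 with retinoic acid and 59934 in control. Of the macrophage markers, Ptprc, Tyrobp and C1qa did not exceed the floor on either array. The other 5 did on both, 4 of them higher with retinoic acid, with Lyz2 the brightest (354 with retinoic acid, 336 in control) and Cd14 1.81-fold higher (102 with retinoic acid, 56.1 in control), and the 8 genes of that list summed to 622 with retinoic acid and 545 in control. Of the 4 adipocyte markers on the array Adipoq, Cidec and Lep did not exceed the floor on either array, while the fatty acid binding protein gene Fabp4 had a signal of 2689 with retinoic acid and 244 in control; their sums were 2708 with retinoic acid and 253 in control. The 4 tendon markers, with Tnmd the brightest (743 with retinoic acid, 902 in control), summed to 1010 with retinoic acid and 1163 in control. Sums with retinoic acid and in control were 421 and 440 for 5 muscle markers and 210 and 225 for 4 osteoblast markers. For 5 endothelial markers, 4 of them not above the floor, they were 88.8 and 75.7. Lower with retinoic acid were 3 tendon, 3 muscle and 1 osteoblast markers. The part of these marker differences in the results below was not tested. In bulk RNA, fewer cells of a type and less RNA per cell cannot be told apart. The 2% trimmed mean signal was 193 with retinoic acid and 183 in control, and the median log2 ratio of retinoic acid over control, over the 10722 genes above the floor on both arrays, was 0.014.

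The comparison asked which steps of sterol synthesis and cholesterol handling differed between a culture kept for a day in retinoic acid and one kept without it. Of the 30 genes, all above the floor on both arrays, 24 were higher with retinoic acid and 6 lower (22 and 8 after quantile normalization, where Scap and Sc5d change sign). Of the 18 synthesis genes 10, on both sides of squalene, were higher by 1.60-fold to 2.57-fold, together with the feedback gene Insig1 (3.87-fold), the efflux genes Abca1 (2.76-fold) and Abcg1 (1.79-fold) and the oxysterol hydroxylase gene Cyp7b1 (5.77-fold). Mvk, which encodes mevalonate kinase, was 1.65-fold lower, and the genes of SREBP2, of its escort Scap and of lysosomal cholesterol export differed by at most 1.27-fold on their brightest probe sets. Throughout, a gene is read on the probe set with its highest mean log2 signal, and a fold is the ratio of the 2 signals. The plot of signals by gene shows both arrays for every gene.

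**Figure D1:**
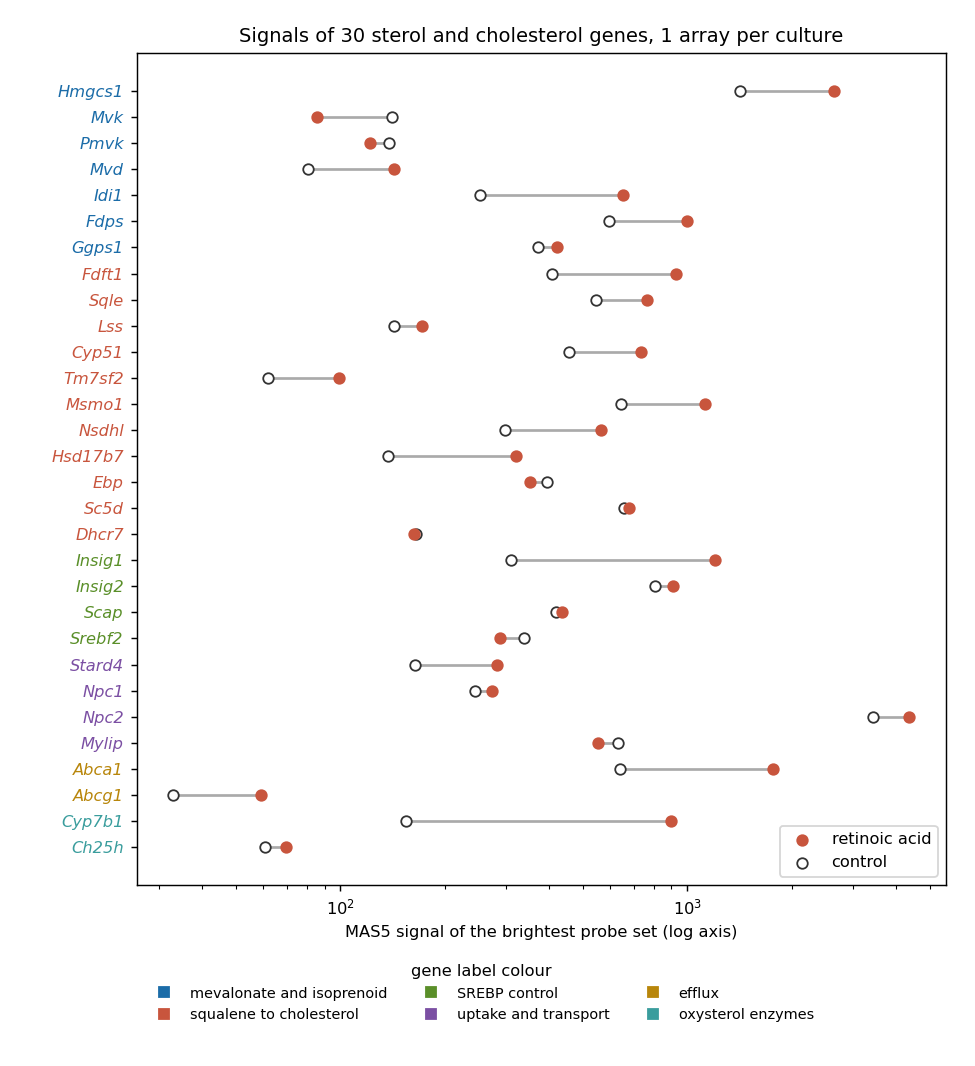
MAS5 signal of the brightest probe set of each of the 30 genes (log axis) with retinoic acid (filled) and in control (open), 1 array each, in pathway order from top to bottom, with label colours for the role of the gene. The filled point lies to the right for 24 genes and to the left for Mvk, Pmvk, Ebp, Dhcr7, Srebf2 and Mylip.

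At least 1.5-fold higher were 15 of the 30 sterol genes (50%), against 14.3% of all 11884 genes measured, meaning above the floor on at least 1 array. At least 1.5-fold lower was 1 of 30 (3.33%), against 11.4% of all genes. At the 2-fold limit 6 sterol genes were higher (20.0%), namely Cyp7b1, Insig1, Abca1, Idi1, Hsd17b7 and Fdft1, against 6.54% of all genes, and 0 were lower, against 4.34%. Any excess at all with retinoic acid was seen in 24 of 30 (80.0%), against 50.3% of all genes. The median log2 ratio of the 30 genes was 0.58, and that of all measured genes 0.0040. Genes of a pathway vary together and were picked with earlier results of these arrays known, so these shares describe the genes and test nothing.

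**Figure D2:**
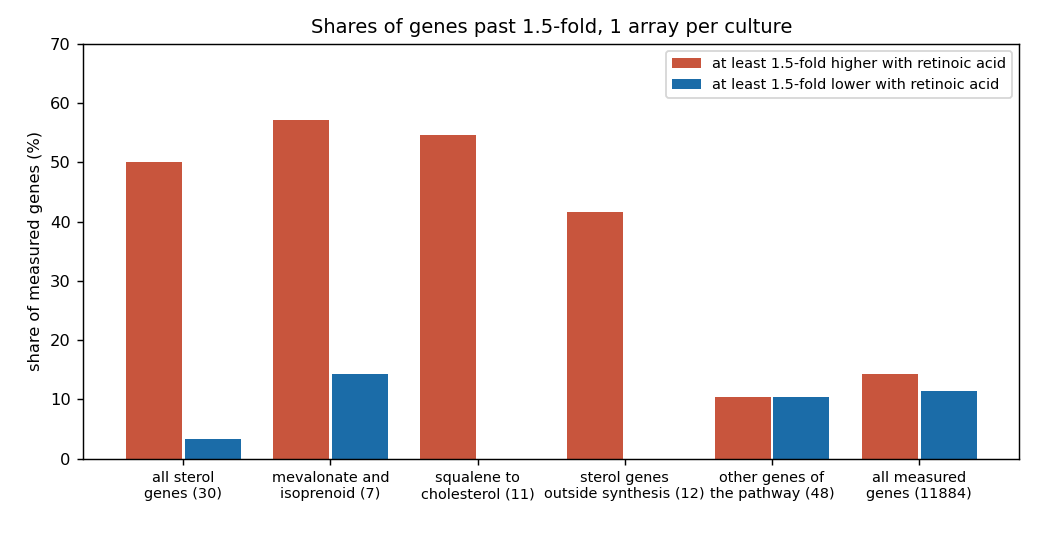
Share of measured genes (%) that were at least 1.5-fold higher (left bar of each pair) or at least 1.5-fold lower (right bar) with retinoic acid, for the 30 genes, their subgroups, the other genes of the pathway and all genes, with the number measured in brackets. The share higher is 50% for the 30 genes, 10.4% for the other pathway genes and 14.3% for all genes.

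The first enzymes of the route make mevalonate and turn it into the isoprenoid units from which sterols are built. Among 7 such genes measured, 4 passed 1.5-fold upward (57.1%) and 1 passed it downward (14.3%), against 14.3% and 11.4% of all genes. Their median log2 ratio was 0.75. Hmgcs1, which encodes the synthase that condenses acetyl-CoA with acetoacetyl-CoA into HMG-CoA and whose promoter above holds the sterol element, had a signal of 2641 with retinoic acid and 1415 in control, 1.87-fold higher. Its other probe sets above the floor read 2794, 1650 and 795 with retinoic acid, against 1335, 778 and 420 in control. All 4 of these probe sets were thus higher on the retinoic acid array, with log2 ratios from 0.90 to 1.08, and the brightest gave the smallest. Idi1 encodes the isomerase that balances the pair of isoprenoid building blocks. Its signal was 650 with retinoic acid and 253 in control, 2.57-fold higher and 441st of 11884 genes by ratio, and a second probe set read 436 with retinoic acid and 185 in control (2.36-fold).

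The kinases between these enzymes did not share the direction. Mvk had a signal of 85.5 with retinoic acid and 141 in control on its brighter probe set, 1.65-fold lower, and of 69.0 with retinoic acid and 108 in control on the other, 1.56-fold lower. Pmvk, the kinase of the following step, was 1.13-fold lower (122 with retinoic acid, 138 in control). Mvd, the decarboxylase after them, was again higher, by 1.76-fold (142 with retinoic acid, 80.9 in control) and by 2.39-fold on its second probe set (132 with retinoic acid, 55.1 in control). Mvk, Pmvk and Mvd all have low signals, at most 142 on either array, and Mvk and Mvd are the pair of genes whose ratio a higher floor moved most. Fdps, which joins isoprenoid units into farnesyl diphosphate, the last common precursor of sterols and of other isoprenoids, was 1.68-fold higher (998 with retinoic acid, 595 in control). For Ggps1, which takes farnesyl diphosphate away towards geranylgeranyl groups for proteins, the brightest probe set was 1.13-fold higher (422 with retinoic acid, 372 in control) but the other 3 above the floor were lower, with log2 ratios from -0.42 to -0.11, so no direction is given for it.

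From farnesyl diphosphate onward the enzymes are committed to sterols. Among the 11 genes of this stretch, 6 passed 1.5-fold upward (54.5%) and 0 downward, against 14.3% and 11.4% of all genes. The log2 ratios ran from -0.16 to 1.23 around a median of 0.68. Fdft1, squalene synthase, the entry enzyme, had a signal of 928 with retinoic acid and 408 in control, 2.27-fold higher, and its second probe set read 666 with retinoic acid and 297 in control (2.24-fold). Sqle, the epoxidase that follows and a known control point of the route, was 1.40-fold higher (764 with retinoic acid, 546 in control), just under the 1.5-fold limit. Lss, which closes the rings to lanosterol, was 1.21-fold higher on its brightest probe set (172 with retinoic acid, 142 in control) and 1.40-fold on the next (166 with retinoic acid, 118 in control). Of these first 3 steps, squalene synthase therefore had the largest ratio on these arrays.

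The next enzymes strip methyl groups from lanosterol. Cyp51, the sterol demethylase, was 1.61-fold higher (735 with retinoic acid, 456 in control). A second probe set of Cyp51 gave 1.55-fold and the third, near the floor, 1.10-fold. Msmo1, the sterol methyl oxidase, was 1.75-fold higher (1124 with retinoic acid, 644 in control). Nsdhl, the dehydrogenase that removes the carboxyl group left by Msmo1, was 1.90-fold higher (566 with retinoic acid, 297 in control), and Tm7sf2, a sterol reductase, 1.60-fold higher from a low signal (99.3 with retinoic acid, 61.9 in control). All 4 lay between 1.60-fold and 1.90-fold on their brightest probe sets. Hsd17b7, the ketoreductase working with Nsdhl, was 2.35-fold higher on its brightest probe set (321 with retinoic acid, 137 in control), whose name marks probes that can also bind other transcripts. Its remaining probe sets above the floor gave 1.58-fold (198 with retinoic acid, 125 in control) and 1.42-fold (158 with retinoic acid, 111 in control), so its place above 2-fold rests on 1 probe set.

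The last enzymes, which shift and reduce double bonds to give cholesterol, hardly differed. Ebp, the sterol isomerase, was 1.12-fold lower (353 with retinoic acid, 394 in control). Sc5d, the desaturase, was 1.03-fold higher on its brightest probe set (677 with retinoic acid, 656 in control), and 1.38-fold (375 with retinoic acid, 272 in control) and 1.24-fold (66.9 with retinoic acid, 53.8 in control) on the dimmer ones. Dhcr7, a reductase of the final step, was 1.01-fold lower (163 with retinoic acid, 165 in control). None of these 3 genes reached 1.5-fold on any probe set above the floor, whereas the 5 genes from Cyp51 to Hsd17b7 all did on their brightest probe set.

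Of the genes that set SREBP2 activity, Insig1 stood apart. Insig1 retains the SREBP2 and Scap complex in the endoplasmic reticulum and is itself a target of SREBP2, so it closes a feedback loop. Its signal was 1200 with retinoic acid and 310 in control, 3.87-fold higher and 228th of 11884 genes by ratio, on the only probe set with that symbol. Insig2, its paralog with the same retaining role, was 1.12-fold higher (909 with retinoic acid, 809 in control), and its other probe sets gave 1.07-fold (662 with retinoic acid, 617 in control) and 1.24-fold (596 with retinoic acid, 480 in control). Scap was 1.04-fold higher (435 with retinoic acid, 419 in control). Srebf2, the gene of SREBP2, was 1.18-fold lower on the brightest probe set (289 with retinoic acid, 339 in control) and 1.08-fold higher on the other (215 with retinoic acid, 199 in control), so its probe sets disagree in sign. Array signals report messenger RNA and do not show how much SREBP2 was cleaved.

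Within the cell, cholesterol released from lipoproteins leaves the lysosome through Npc2 and Npc1 and travels between membranes on carriers such as Stard4. Stard4 was 1.72-fold higher (283 with retinoic acid, 164 in control), and its dimmer probe sets gave 1.49-fold and 1.30-fold. Npc1, the membrane exporter, was 1.12-fold higher (273 with retinoic acid, 244 in control). Npc2, the soluble carrier that hands cholesterol to it, was 1.27-fold higher on its brightest probe set (4352 with retinoic acid, 3418 in control) and 1.42-fold on the next (4349 with retinoic acid, 3065 in control), while a much dimmer one gave 2.03-fold (239 with retinoic acid, 118 in control). Its highest signal, 4352, was also the highest among the 30 genes. Mylip, a ubiquitin ligase that removes lipoprotein receptors and is a liver X receptor target, was 1.14-fold lower (551 with retinoic acid, 629 in control).

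The largest ratio of the 30 genes was that of an oxysterol enzyme gene, Cyp7b1, and both efflux genes were higher as well. Abca1, the transporter that loads cholesterol onto apolipoprotein acceptors and whose promoter above holds the direct repeat, had a signal of 1771 with retinoic acid and 641 in control, 2.76-fold higher and 385th by ratio. Its dimmer probe sets read 115 with retinoic acid and 58.2 in control (1.97-fold), and 61.1 with retinoic acid and 26.6 in control (2.30-fold), the last control value lying at the edge of the floor. Abcg1, which passes cholesterol to high-density lipoprotein, was 1.79-fold higher from a low signal (59.1 with retinoic acid, 33.0 in control). Cyp7b1 hydroxylates oxysterols and thereby leads them out of the pool of liver X receptor ligands. Its signal was 894 with retinoic acid and 155 in control, 5.77-fold higher and 100th of 11884 genes by ratio, and the second probe set gave 5.86-fold (605 with retinoic acid, 103 in control). Ch25h, which makes an oxysterol from cholesterol, had low signals of 69.5 with retinoic acid and 60.8 in control, 1.14-fold higher. Abca1, Abcg1 and Mylip are known liver X receptor targets, and Mylip was 1.14-fold lower. Srebf1, a target in liver that is not among the 30 genes, was 3.51-fold lower. Whether liver X receptor activity differed between the cultures was not tested.

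How far a ratio can be trusted within these RNAs was read from genes with several probe sets. Of the 30 genes 16 had more than 1 probe set above the floor on both arrays, and in 14 of them all such probe sets lay on the same side, the exceptions being Ggps1 and Srebf2. Over all 57 such probe sets of the 30 genes 47 were higher with retinoic acid, with a median log2 ratio of 0.51. The matching shares over all genes of the array were not computed. Whether the probe sets of the 30 genes share a side more often than those of other genes is therefore not known. Of the 15 genes at least 1.5-fold higher, 9 had several probe sets, and in 6 of these (Hmgcs1, Mvd, Idi1, Fdft1, Abca1 and Cyp7b1) every one was at least 1.5-fold higher. Cyp51, Hsd17b7 and Stard4 had at least 1 probe set under that limit. The other 6, namely Fdps, Tm7sf2, Msmo1, Nsdhl, Insig1 and Abcg1, rest on 1 probe set each. Pooled over 4993 genes of the array, log2 ratios of probe sets that share a gene had an SD of 0.30. That value measures disagreement between probe sets on 1 pair of RNAs, and differences between cultures are not in it.

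**Figure D3:**
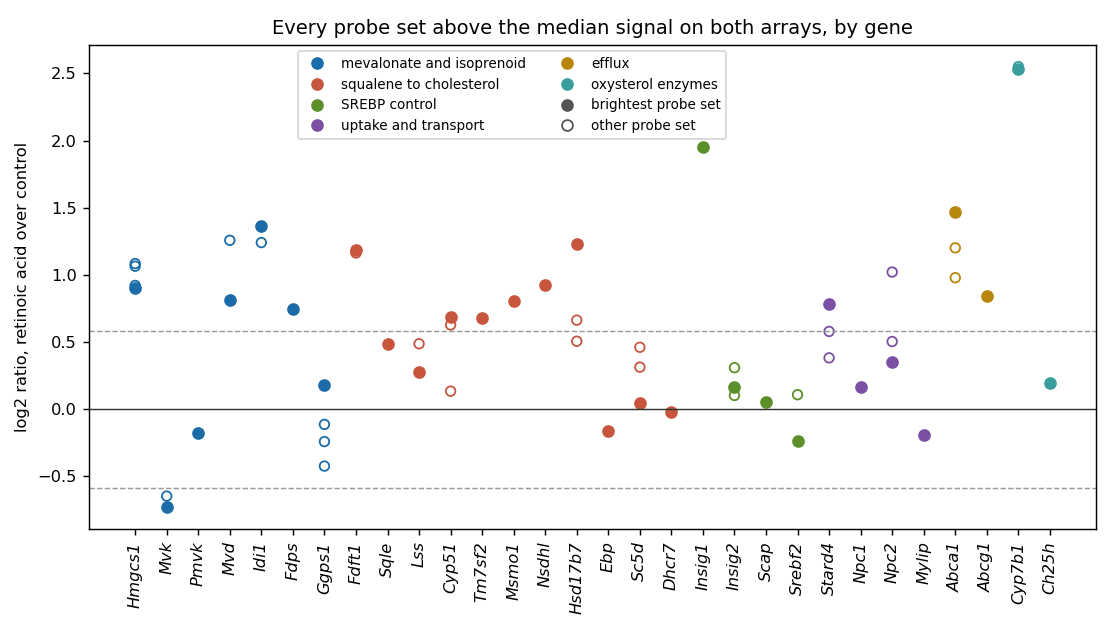
Log2 ratio of retinoic acid over control for each of the 57 probe sets brighter than the floor of both arrays, by gene in pathway order; filled points are the brightest probe set of a gene, open points its others, and dashed lines mark 1.5-fold. Points of Hmgcs1, Idi1, Fdft1 and Cyp7b1 lie close together, while those of Hsd17b7 run from 0.51 to 1.23 and those of Ggps1 lie on both sides of 0.

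Beyond these genes, 65 further genes of sterol and lipid handling were listed by role, of which 48 were measured. Of these 5 passed 1.5-fold upward (10.4%) and 5 downward (10.4%), against 14.3% and 11.4% of all genes, around a median log2 ratio of -0.0078. At the 2-fold limit 1 was higher (2.08%) and 4 were lower (8.33%), against 6.54% and 4.34% of all genes. Of 8 measured genes that use isoprenoids for dolichol, ubiquinone and prenylated proteins, 0 passed 1.5-fold and 8 were lower on the brightest probe set, by log2 ratios from -0.52 to -0.03, against 48.4% of all genes that were lower by any amount. For Nus1 and Pggt1b dimmer probe sets lay on the other side. The dimmest probe set of Dhdds, a subunit of the enzyme that makes dolichol precursors, was 2.02-fold lower (30.1 with retinoic acid, 60.8 in control), close to the floor. Of 10 fatty acid synthesis genes, most of them SREBP targets, Acly, which makes cytosolic acetyl-CoA, was 1.83-fold higher (2019 with retinoic acid, 1103 in control), with its other probe sets above the floor at 1.65-fold and 1.78-fold. Acaca, which carboxylates acetyl-CoA, was 1.64-fold lower (254 with retinoic acid, 417 in control) on the brighter and 1.16-fold lower on the other probe set. The remaining 8 fatty acid genes did not pass 1.5-fold, and the largest ratio among them was that of Fasn, fatty acid synthase, at 1.23-fold higher (634 with retinoic acid, 515 in control).

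Among the other genes of SREBP control, 2 of 8 measured were at least 2-fold lower (25.0%), against 4.34% of all genes. Srebf1, which encodes SREBP1 and is a liver X receptor target in liver, had a signal of 486 with retinoic acid and 1704 in control, 3.51-fold lower. The cause of this difference was not tested. Erlin1, an endoplasmic reticulum protein that takes part in sterol-regulated degradation, was 2.57-fold lower (476 with retinoic acid, 1221 in control), while its partner Erlin2 was 1.31-fold higher (410 with retinoic acid, 314 in control). Rnf145, a membrane ubiquitin ligase, was 1.58-fold higher (1157 with retinoic acid, 731 in control). Mbtps1 and Mbtps2, the proteases that release SREBP in the Golgi, were 1.09-fold lower (1425 with retinoic acid, 1556 in control) and 1.13-fold higher (1053 with retinoic acid, 935 in control).

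Among the other uptake and transport genes, 2 of 11 measured passed 1.5-fold upward (18.2%) and 2 downward (18.2%), against 14.3% and 11.4% of all genes. Lrp1, an endocytic receptor of the lipoprotein receptor family, was 2.03-fold higher (3433 with retinoic acid, 1688 in control) and 2.82-fold on its second probe set (112 with retinoic acid, 39.8 in control). Lipa, the lysosomal acid lipase that frees cholesterol from its esters, was 1.84-fold higher (479 with retinoic acid, 260 in control), and its other probe sets gave 1.72-fold and 1.64-fold. Stard5, a sterol-binding relative of Stard4, was 2.74-fold lower (146 with retinoic acid, 401 in control), and its other probe sets above the floor gave 3.88-fold and 3.69-fold lower. Stard4 and Stard5 thus lay on opposite sides. Gramd1b, which moves plasma membrane cholesterol to the endoplasmic reticulum, was 2.62-fold lower on the brighter probe set (67.0 with retinoic acid, 176 in control) but 1.01-fold lower on the other (74.8 with retinoic acid, 75.3 in control). All 5 measured efflux and storage genes were higher on the brightest probe set, by log2 ratios from 0.015 to 0.76, against 50.3% of all genes higher by any amount. The smallest ratio was that of Abcg4, whose dimmer probe set lay on the other side (log2 ratio -0.12). Only Apoe, which encodes an apolipoprotein acceptor of cholesterol, passed 1.5-fold. It was 1.69-fold higher close to the floor (46.1 with retinoic acid, 27.2 in control). Of 4 measured oxysterol and bile acid genes 0 passed 1.5-fold.

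**Figure D4:**
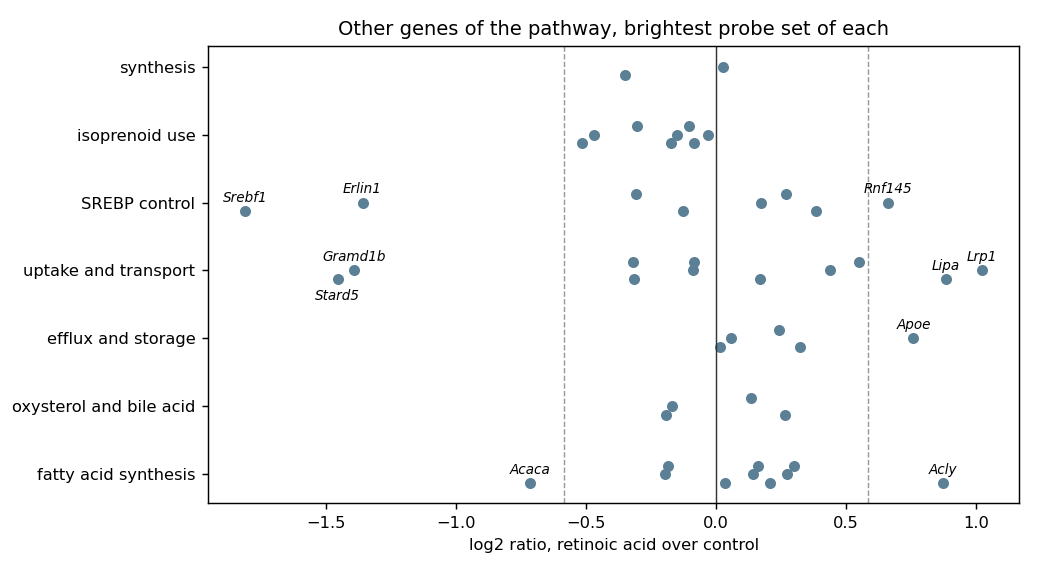
Log2 ratio of retinoic acid over control for the 48 measured genes of the wider pathway, by role, on the brightest probe set of each, with dashed lines at 1.5-fold and names for genes past them; the point of Cyp46a1 (oxysterol and bile acid, 0.27) is a lower bound because its control signal was below the floor. 5 genes lie past the line to the right and 5 to the left, where 4 are at least 2-fold lower against 1 that is at least 2-fold higher, and all 8 genes of isoprenoid use lie left of 0.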

How the data were processed

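Total RNA from 1 culture with and 1 without retinoic acid was labelled from 100 ng and hybridised to 1 array each, per the labels' protocols. The deposited intensities are linear signals per probe set from MAS5, the Affymetrix summary algorithm named in the submitters' processing notes; which version, scaling target and detection calls it used is not given in the sources used here. No scaling was added to them. Of 45101 probe sets 34945 carried 1 gene symbol in the platform's annotation and were kept. Signals at or below each array's median were raised to it. A gene was read on its brightest probe set, by mean log2 signal over both arrays, and its log2 ratio runs from control to retinoic acid; a gene above the floor on 1 array only has a bound. Limits of 1.5-fold and 2-fold were counted with no test. The counting step was tested on simulated data.

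All 32 genes were to be named; other pathway genes were named where they passed 1.5-fold with every other probe set above the floor on the same side, and Srebf1 whatever its value. Fasn, Erlin2, Mbtps1, Mbtps2, Nus1, Pggt1b, Dhdds, Abcg4 and Cyp46a1 were named beside that rule, after their values were seen. The genes, lists, motifs and limits were chosen with earlier results of these data known. Alternatives were 5 treatments of dim signals, 3 scalings, 2 choices of probe set and a restriction to genes above the floor on both arrays. The software was numpy 2.4.6, pandas 2.3.3, statsmodels 0.14.6 and matplotlib 3.10.9 under Python 3.11.15.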

Additional observations from a re-analysis of the deposited data

How the results depend on the processing

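No paired analysis was possible because each group holds 1 array, and no array could be left out. Across 11 alternatives 325 values of single sterol genes were recomputed: 320 moved by less than the probe set SD, 5 by more, and 0 of those past 1.5-fold changed sign. The count at least 2-fold higher stayed at 6 except for 5 with only unmarked probe sets, and the count at least 1.5-fold higher ran from 12 to 15. By the median over probe sets the 6 were not the same genes. There Mvd (log2 ratio 1.04) came in and Hsd17b7 (0.66) dropped out. The count at least 1.5-fold lower, 1 in the report (Mvk), was 0 with a floor at the 70th percentile and 0 with the median added as an offset. With the floor at the 70th percentile, which leaves 27 of the 30 genes, the median log2 ratio was 0.35 for all of them, 0.23 for the mevalonate genes and 0.59 for the squalene to cholesterol genes. The offset gave 0.51 for all and 0.55 for the squalene to cholesterol genes, quantile normalization 0.50 and 0.58, and unmarked probe sets 0.58 for the squalene to cholesterol genes. Single genes that moved by more than the SD were Mvk (-0.15) and Mvd (0.23) under the higher floor, Ggps1 (-0.18) by the median of its probe sets, and Hsd17b7 (0.66) by that median and on unmarked probe sets. The background shares moved more: 11.7% of all genes were at least 2-fold higher and 11.6% lower with no floor, and 3.63% and 1.95% with the offset, against 6.54% and 4.34% in the report; at least 1.5-fold lower were 20.0% with no floor and 5.93% with the offset, against 11.4%. Low signals, above all those of Mvk, Mvd, Tm7sf2, Abcg1 and Ch25h, lie nearest to the floor and limit what their ratios show.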
